A study of Mus musculus with 13 samples.

Results

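The genes examined are 10 genes of the neuromuscular junction of the mouse, taken by name from a bulk RNA-seq table of 24411 genes: the acetylcholine receptor subunit genes Chrna1, Chrnb1, Chrnd, Chrng and Chrne, and the synapse assembly genes Musk, Dok7, Rapsn, Lrp4 and Agrn. All 10 were in the table, and all 10 were among the 13233 genes that reached 1 FPKM (fragments per kilobase of transcript and per 1000000 mapped fragments) in at least 2 of 11 libraries. Chrne reached it only through the differentiating cells, so that a difference for this gene was fixed by the filter. For Dok7 only replicate 1 of fresh SMMC reached 1 FPKM among the freshly sorted libraries, so its rises in culture were favoured by the filter. The cells came from hindlimb skeletal muscle of wild type C57BL/6 mice aged 2 months, with no injury, transgene or drug named in the labels. Freshly sorted MuSC, the muscle stem cells labelled quiescent, were negative for CD31, CD45 and Sca1 and positive for Vcam1 and ITGA7 (n = 2). Freshly sorted SMMC, smooth-muscle/mesenchymal-like cells, had the same surface profile but lacked Vcam1 (n = 3). Proliferating SMMC were such cells after 3 days in culture (n = 3), and differentiating SMMC were cultured and then left to differentiate for a time that the labels do not give (n = 3). A further pair of libraries held single cells from uninjured muscle of the same strain, age and genotype. The labels number the libraries but do not say that they came from separate animals or cultures, so a p-value speaks only of the scatter among the libraries at hand, and that scatter may be technical.

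At the neuromuscular junction the nerve releases acetylcholine onto a pentameric channel in the muscle membrane. The fetal channel holds alpha, beta, delta and gamma subunits, and in the adult channel the epsilon subunit takes the place of gamma. Nerve-derived agrin, encoded by Agrn, binds Lrp4 on the muscle surface, Lrp4 activates the receptor tyrosine kinase MuSK, and MuSK with its cytoplasmic activator Dok7 drives clustering of the channels through the scaffold protein rapsyn, the product of Rapsn. The subunit genes are known targets of myogenic basic helix-loop-helix factors such as MyoD and myogenin, which bind E-boxes, sites of the form CANNTG. The N-box, CCGGAA, is a known element of genes transcribed in the nuclei beneath the synapse and is bound by Ets-family factors.

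On build GRCm38, with genes placed by GENCODE vM21, Chrnd (chr1:87190607-87200070, plus strand) and Chrng (chr1:87204657-87212694, plus strand) are neighbours separated by 4586 bases. Chrna1 lies at chr2:73563215-73580338 on the minus strand. Rapsn (chr2:91035620-91045729) and Lrp4 (chr2:91457511-91513779) lie on the plus strand of the same chromosome, 411781 bases apart. Chrnb1 (chr11:69784036-69795943) and Chrne (chr11:70614883-70619216) are both on the minus strand of chromosome 11. Musk is at chr4:58285960-58374303 on the plus strand, Agrn at chr4:156165290-156197488 on the minus strand and Dok7 at chr5:35056766-35087839 on the plus strand. Chrne contains 4930544D05Rik on the opposite strand, with 0 exon bases in common, and Rapsn shares 4 exon bases with Gm13778 on the opposite strand. Whether strand was used in counting is not given in the sources used here. Values of Chrne and Rapsn could hold reads of these partners.

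The promoter windows of 4 genes are shown because the subunit genes differ most among themselves and Musk stands apart from them. Each is the 250 bases before the annotated start, from RefSeq on GRCm38.p6, written 5′ to 3′ on the strand of the gene. Capitals mark matches to CANNTG and to CCGGAA, searched on both strands. The windows are Chrna1 (chr2:73580339-73580588, minus strand), Chrng (chr1:87205561-87205810, plus strand), Chrne (chr11:70619195-70619444, minus strand) and Musk (chr4:58285712-58285961, plus strand).
Chrna1: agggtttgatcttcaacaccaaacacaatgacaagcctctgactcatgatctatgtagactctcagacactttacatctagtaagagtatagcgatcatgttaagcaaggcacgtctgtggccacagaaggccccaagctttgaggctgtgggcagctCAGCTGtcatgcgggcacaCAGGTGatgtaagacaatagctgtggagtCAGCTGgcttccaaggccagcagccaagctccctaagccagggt
Chrng: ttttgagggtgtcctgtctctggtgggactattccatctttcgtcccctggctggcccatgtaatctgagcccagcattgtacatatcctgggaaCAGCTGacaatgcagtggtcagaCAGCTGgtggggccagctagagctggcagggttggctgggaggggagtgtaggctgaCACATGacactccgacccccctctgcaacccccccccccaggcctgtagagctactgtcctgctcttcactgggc
Chrne: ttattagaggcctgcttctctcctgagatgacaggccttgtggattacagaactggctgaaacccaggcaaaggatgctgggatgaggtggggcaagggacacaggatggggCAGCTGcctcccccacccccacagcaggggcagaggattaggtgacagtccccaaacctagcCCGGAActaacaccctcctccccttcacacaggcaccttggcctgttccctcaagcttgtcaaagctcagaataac
Musk: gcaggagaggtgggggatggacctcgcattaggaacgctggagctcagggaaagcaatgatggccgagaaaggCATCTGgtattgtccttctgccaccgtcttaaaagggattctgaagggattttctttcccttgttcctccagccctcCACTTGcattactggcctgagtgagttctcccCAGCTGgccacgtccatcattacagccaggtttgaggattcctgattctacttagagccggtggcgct

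RefSeq windows matched 7 of the 10 genes, as 9 windows, since Dok7 and Agrn each had a second start. CANNTG matched 7 of the 9 windows, against 66.2% of the 32851 mouse promoter windows of the same length, so a match of this kind is common. Chrna1, Chrnb1, Chrng and Musk each had 3 matches, a number reached by 12.2% of all windows. The special case CAGCTG, which is counted among the CANNTG matches, was in 4 of the 9 windows and in 13.0% of all windows. Chrna1 had CAGCTG at 92 and 44 bases before the start with CAGGTG at 73, and Chrng had CAGCTG at 155 and 132 with CACATG at 75. Musk had CAGCTG at 68 bases before its start. CCGGAA, present in 12.0% of all windows, was in 1 of the 9, that of Chrne, at 76 bases before the start, and Chrne also had CAGCTG at 138. The main Agrn window and the second Dok7 window held neither motif. These are matches of letters and do not show that a factor was bound.

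Facts of the libraries bear on every comparison. The table gives no read counts, so the depth of the bulk libraries is unknown. Genes at 1 FPKM or more numbered from 9527 to 11667 per library. Rn45s, the ribosomal RNA precursor, was at 113 to 123 FPKM in the MuSC libraries and at 23713 to 53713 FPKM in the SMMC libraries, so that MuSC stand apart in this respect. In every comparison with MuSC, cell type and whatever lies behind this difference cannot be told apart. The summed level of 5 muscle stem cell markers (Pax7, Myf5, Chodl, Calcr and Myod1) was 1820 to 3047 FPKM in MuSC, most of it Myf5, and 317 to 516 in fresh SMMC, most of it Chodl. Chodl was higher in fresh SMMC (331 ± 74.5 FPKM, SD, n = 3) than in MuSC (133 ± 9.54, SD, n = 2), and the other 4 were lower. Fresh SMMC also held markers of other cells: 5 tenocyte markers summed to 8304 to 16700 FPKM, against at most 26.5 in any library of the other 3 groups, 5 pericyte markers to 1083 to 2809 against at most 27.0, and 5 fibro-adipogenic progenitor markers to 1966 to 3756 against at most 475. The smooth muscle markers, which the label names, were at 1090 to 1663 FPKM in fresh SMMC and at 51.0 to 103 in MuSC, and no marker of these lists was at 0 throughout fresh SMMC. In such bulk samples fewer cells of a type and less RNA per cell cannot be told apart.

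**Figure D1:**
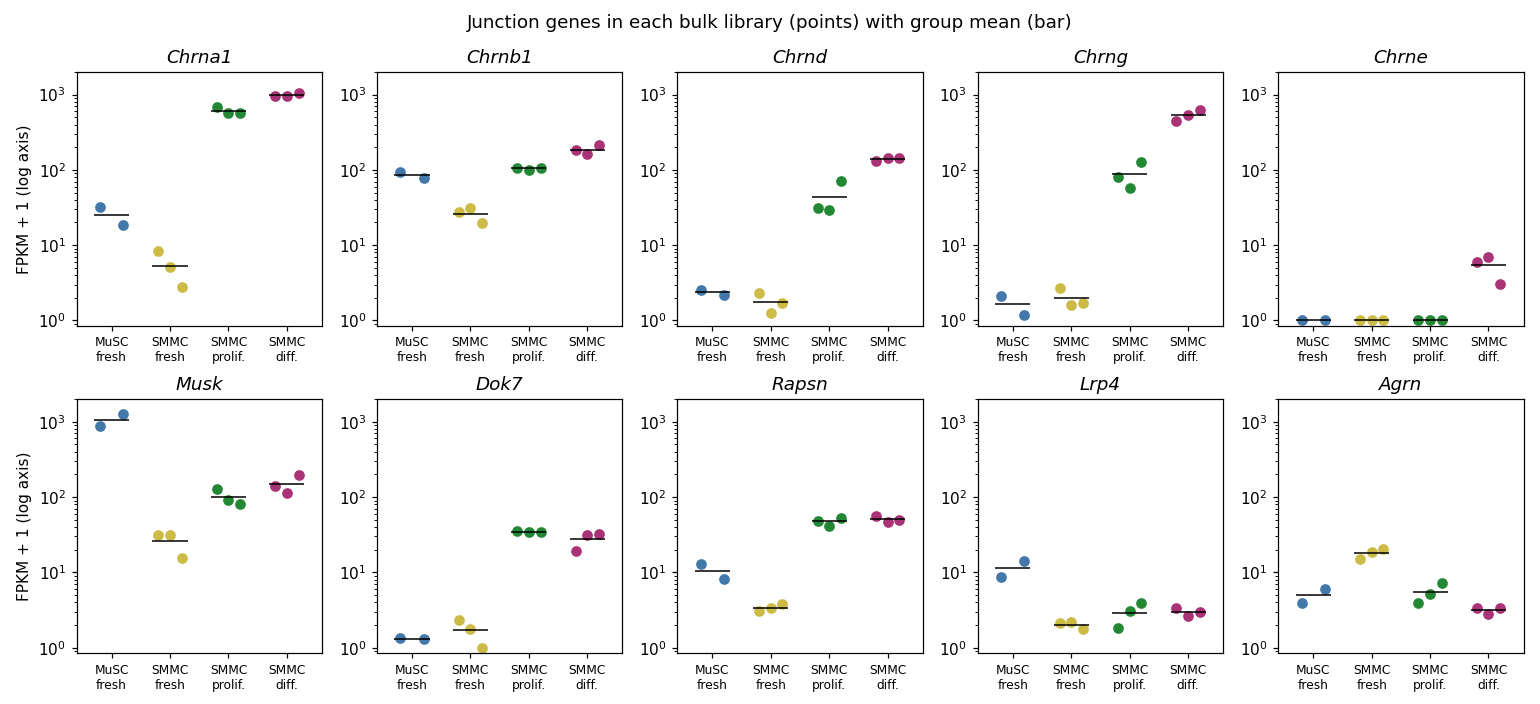
FPKM plus 1 on a log axis for the 10 junction genes in each of the 11 bulk libraries (points), by group on the horizontal axis, with the group mean as a bar. Chrna1 and Chrng are highest in the differentiating SMMC, Musk and Lrp4 in MuSC and Agrn in fresh SMMC, while Chrne is at 0 in all groups but the differentiating SMMC.

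Chrna1, Chrnb1, Chrnd and Chrng were higher in every cultured library than in any freshly sorted one. For Chrnb1 the difference between proliferating SMMC and MuSC still did not pass the test. Chrne was above 0 in differentiating SMMC alone. Chrna1, the alpha subunit that carries the main part of the acetylcholine site, was at 31.1 and 17.4 FPKM in the MuSC libraries and at 7.26, 4.07 and 1.78 FPKM in fresh SMMC. In proliferating SMMC it was at 690, 564 and 563 FPKM, and in differentiating SMMC at 954, 941 and 1046 FPKM. The 4 groups did not overlap, and the order from high to low was differentiating SMMC, proliferating SMMC, MuSC and fresh SMMC, although the top pair missed the test's threshold. Of the tested genes, 99.5% lay below Chrna1 in differentiating SMMC, against 39.3% in fresh SMMC.

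Chrnb1, the beta subunit, was the most abundant subunit in all 5 freshly sorted libraries. Its level was 92.7 and 76.0 FPKM in MuSC, 26.7, 30.5 and 18.5 in fresh SMMC, 105, 99.4 and 105 in proliferating SMMC, and 181, 162 and 213 in differentiating SMMC. Proliferating SMMC and MuSC, neighbours in this order, did not overlap, but their difference did not pass the test (log2 difference 0.30, 95% interval -0.19 to 0.78, adjusted p = 0.255). The sign of that difference changed under other scalings. Chrnd, the delta subunit, was at 1.52 and 1.20 FPKM in MuSC, 1.31, 0.255 and 0.725 in fresh SMMC, 29.8, 28.3 and 69.3 in proliferating SMMC, and 129, 144 and 141 in differentiating SMMC. The fresh groups overlapped, and both lay below every cultured library. In proliferating SMMC, replicate 3 was above the other libraries for Chrnd as for Chrng.

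Chrng, the fetal gamma subunit, had the widest range of the 10 genes, with group means 8.38 apart on the log2(FPKM + 1) scale. It was at 1.13 and 0.196 FPKM in MuSC and at 1.71, 0.610 and 0.681 FPKM in fresh SMMC, which overlapped. In proliferating SMMC it was at 78.6, 56.2 and 127 FPKM, and in differentiating SMMC at 449, 532 and 621 FPKM. Chrne, the adult epsilon subunit, was listed at 0 in all 8 libraries of the other groups and at 5.05, 6.06 and 2.06 FPKM in differentiating SMMC, so that no fold is given. Chrng therefore made up from 98.9% to 99.7% of the summed FPKM of Chrng and Chrne in the differentiating libraries.

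The make-up of the receptor transcripts changed along with their amount. The 5 subunits together came to 111 ± 22.4 FPKM in MuSC (SD, n = 2), 31.4 ± 8.41 in fresh SMMC, 838 ± 81.0 in proliferating SMMC and 1842 ± 160 in differentiating SMMC (SD, n = 3 each). In the freshly sorted cells the beta subunit held most of this sum, 76.7% in MuSC and 81.2% in fresh SMMC. In proliferating SMMC the alpha subunit held 72.3% ± 6.22 and gamma 10.3% ± 3.83, and in differentiating SMMC alpha held 53.3% ± 1.98 and gamma 28.9% ± 2.42 (SD, n = 3 each). The gamma share did not overlap between these groups, with 7.52% to 14.7% before and 26.1% to 30.7% after. Alpha per beta, a ratio of FPKM, was 0.28 in MuSC and 0.17 in fresh SMMC, and 5.85 and 5.34 in the cultured groups.

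**Figure D2:**
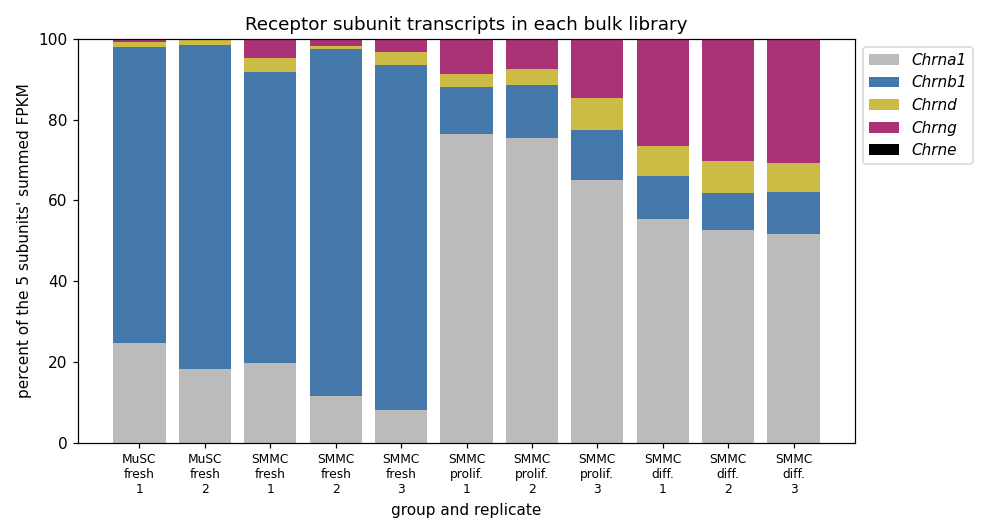
Share of each receptor subunit, in percent, in the summed FPKM of the 5 subunits for each bulk library (bars, by group and replicate). Chrnb1 takes most of each bar in the 5 freshly sorted libraries and Chrna1 in the 6 cultured ones, while the share of Chrng is above 26% only in the 3 differentiating libraries. Chrne, at most 0.340%, is too thin to see.

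Among the assembly genes, Musk and Lrp4 were highest in MuSC, Agrn in fresh SMMC, and Dok7 and Rapsn in the cultured cells. Musk, the kinase, was highest in the freshly sorted stem cells, at 889 and 1250 FPKM, and lowest in fresh SMMC, at 30.1, 30.1 and 14.6 FPKM. Cultured SMMC lay between, at 126, 91.7 and 81.1 FPKM when proliferating and 138, 112 and 196 FPKM when differentiating, and these last groups overlapped. Of the tested genes, 99.6% lay below Musk in MuSC. Lrp4, the agrin receptor, was likewise highest in MuSC, at 7.56 and 13.1 FPKM. It was at 1.16, 1.17 and 0.754 FPKM in fresh SMMC, at 0.819, 2.09 and 2.88 in proliferating SMMC and at 2.32, 1.67 and 2.02 in differentiating SMMC, and the call between any pair of the SMMC groups missed the threshold. Without proliferating SMMC replicate 1, Lrp4 passed against fresh SMMC both in proliferating (log2 change 0.78, adjusted p = 0.021) and in differentiating SMMC (adjusted p = 0.047), and the latter also passed on the 2 groups alone (adjusted p = 0.032).

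Dok7, the activator of MuSK, was near the bottom of the range in both fresh groups, at 0.347 and 0.295 FPKM in MuSC and at 1.33, 0.757 and 0 FPKM in fresh SMMC. It was at 34.5, 33.0 and 33.2 FPKM in proliferating SMMC and at 18.0, 30.4 and 31.7 FPKM in differentiating SMMC. Musk was thus 2559 to 4238 times Dok7 in the MuSC libraries and 2.44 to 7.68 times Dok7 in the cultured ones, as ratios of FPKM. In fresh SMMC the ratio was 22.6 and 39.7 in replicates 1 and 2, and replicate 3, with Dok7 at 0, gives none. The MuSC ratios divide by Dok7 levels under 1 FPKM, so their size is uncertain. Rapsn, the scaffold, was at 12.0 and 7.10 FPKM in MuSC, 2.03, 2.40 and 2.79 in fresh SMMC, 47.0, 40.9 and 51.9 in proliferating SMMC and 55.2, 45.2 and 48.2 in differentiating SMMC. The cultured groups overlapped for Rapsn and both lay above every fresh library. Rapsn per Chrna1, a ratio of FPKM, was 0.40 ± 0.01 in MuSC (SD, n = 2), 0.81 ± 0.67 in fresh SMMC, 0.078 ± 0.013 in proliferating SMMC and 0.051 ± 0.0063 in differentiating SMMC (SD, n = 3 each).

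Agrn, which encodes the ligand, was the only member with its highest level in fresh SMMC, at 14.0, 17.6 and 19.4 FPKM. It was at 2.95 and 5.11 FPKM in MuSC, 2.88, 4.15 and 6.24 in proliferating SMMC and 2.35, 1.83 and 2.39 in differentiating SMMC. Fresh SMMC lay above all other libraries, and MuSC and proliferating SMMC overlapped. Beside this, 5 endothelial markers summed to 103 to 186 FPKM in fresh SMMC and to at most 4.43 FPKM in any library of the other groups. Of these, Pecam1, Cdh5 and Kdr had means of 14.7, 3.42 and 1.49 FPKM in fresh SMMC, so that most of the sum came from Cldn5 and Esam. The 5 pericyte markers summed to 1083 to 2809 FPKM there, against at most 27.0 in the other groups. Of 5 Schwann cell markers, 4 were higher and 1, Ncam1, was lower in fresh SMMC than in MuSC. The part of any of these cells in the Agrn level was not tested. The table gives 1 value for the gene, so the neural splice forms of agrin, which activate MuSK, cannot be told from the others.

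Fresh SMMC were compared with MuSC to ask how the Vcam1-negative cells differ from stem cells in the tissue. Of the 10 genes, 5 fell (Chrna1, Chrnb1, Musk, Rapsn and Lrp4), 1 rose (Agrn) and 4 did not pass the test, against a background of 18.0% of all tested genes lower and 41.7% higher. The median log2 change was -1.03 for the 10 genes and 0.45 for all tested genes. Musk had the largest difference, 42.7-fold lower in fresh SMMC (log2 change -5.42, SE 0.34, adjusted p = 8.5e-08). Lrp4 was 5.43-fold lower, Chrna1 4.98-fold, Chrnb1 3.30-fold and Rapsn 3.03-fold (adjusted p from 3.1e-05 to 0.00016), and Agrn was 3.64-fold higher (log2 change 1.86, SE 0.30, adjusted p = 0.00017). All folds are of FPKM plus 1, which understates the change of low values. Chrnd, Chrng and Dok7 had log2 changes of -0.46, 0.28 and 0.28 with intervals that span 0. The sums of tenocyte, pericyte, endothelial and fibro-adipogenic markers were all higher in fresh SMMC than in MuSC, and their part in these differences was not tested. With Rn45s left out and every library set to one total, the same count of 5 lower and 1 higher was found. Such rescaling does not separate cell type from whatever sets Rn45s apart in the MuSC libraries.

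Proliferating SMMC were compared with fresh SMMC for the effect of 3 days in culture. Of the 10 genes, 7 rose, 1 fell (Agrn) and 2 did not pass (Chrne and Lrp4), against 33.1% of all tested genes higher and 35.4% lower. The median log2 change was 2.91 for the 10 genes and -0.06 for all. Chrna1 rose 124-fold (log2 change 6.95, SE 0.33, adjusted p = 6.7e-09), Chrng 43.0-fold and Chrnd 23.3-fold. Dok7 rose 21.6-fold and Rapsn 14.0-fold, while Chrnb1 and Musk rose 4.06-fold and 3.99-fold (adjusted p from 2.2e-08 to 7.7e-05 for these 6). The rise of Dok7 was favoured by the filter, which it met only through cultured libraries. Agrn fell 3.40-fold (log2 change -1.77, SE 0.27, adjusted p = 7.6e-05). Markers of other cells moved with this step: the tenocyte, pericyte, endothelial and fibro-adipogenic sums given above for fresh SMMC were at most 16.2, 7.52, 1.00 and 19.9 FPKM in proliferating SMMC, while of the 5 muscle stem cell markers 2 rose, Myod1 and Myf5, and 2 fell, Chodl and Calcr. The sum of 5 myofibre markers (Acta1, Ckm, Tnnt3, Mylpf and Myh4) was 56.6 to 109 FPKM in fresh and 555 to 1469 in proliferating SMMC. Smooth muscle marker sums were 1090 to 1663 and 599 to 843 FPKM. The part of any of these markers' cells in the changes was not tested.

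Differentiating SMMC were compared with proliferating SMMC for the step from dividing to differentiating culture. Of the 10 genes, 4 rose, all receptor subunits (Chrnb1, Chrnd, Chrng and Chrne), 1 fell (Agrn) and 5 did not pass, against 20.9% of all tested genes higher and 19.6% lower. The median log2 change was 0.63 for the 10 genes and 0.00075 for all. The rise of Chrne was fixed by the filter. The summed level of 5 myofibre markers (Acta1, Ckm, Tnnt3, Mylpf and Myh4) was 555 to 1469 FPKM in the proliferating libraries and 12775 to 16107 FPKM in the differentiating ones, and the part of the share of differentiated cells in these changes was not tested. Chrng rose 6.35-fold (log2 change 2.67, SE 0.32, adjusted p = 4.3e-05), Chrnd 3.49-fold (adjusted p = 0.00076) and Chrnb1 1.77-fold (adjusted p = 0.0056). Chrna1, already high, was at 1.62-fold and did not pass (log2 change 0.70, 95% interval -0.02 to 1.42, adjusted p = 0.112), although all differentiating libraries lay above all proliferating ones. Fitted on these groups alone Chrna1 passed (adjusted p = 0.0094), and it also passed without replicate 3 of fresh SMMC (adjusted p = 0.040). The log2 changes of Musk (0.56), Dok7 (-0.36), Rapsn (0.09) and Lrp4 (0.10) all had intervals that span 0. The fall of Agrn, 1.65-fold, was at the threshold (log2 change -0.72, adjusted p = 0.047) and was lost when any of fresh SMMC replicates 1, 2 and 3, proliferating SMMC replicates 2 and 3 or differentiating SMMC replicates 1, 2 and 3 was left out, with an adjusted p of up to 0.187. It was also lost on these groups alone (adjusted p = 0.087), with no filter on low values (0.082), and with Rn45s left out and every library set to one total (0.061).

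**Figure D3:**
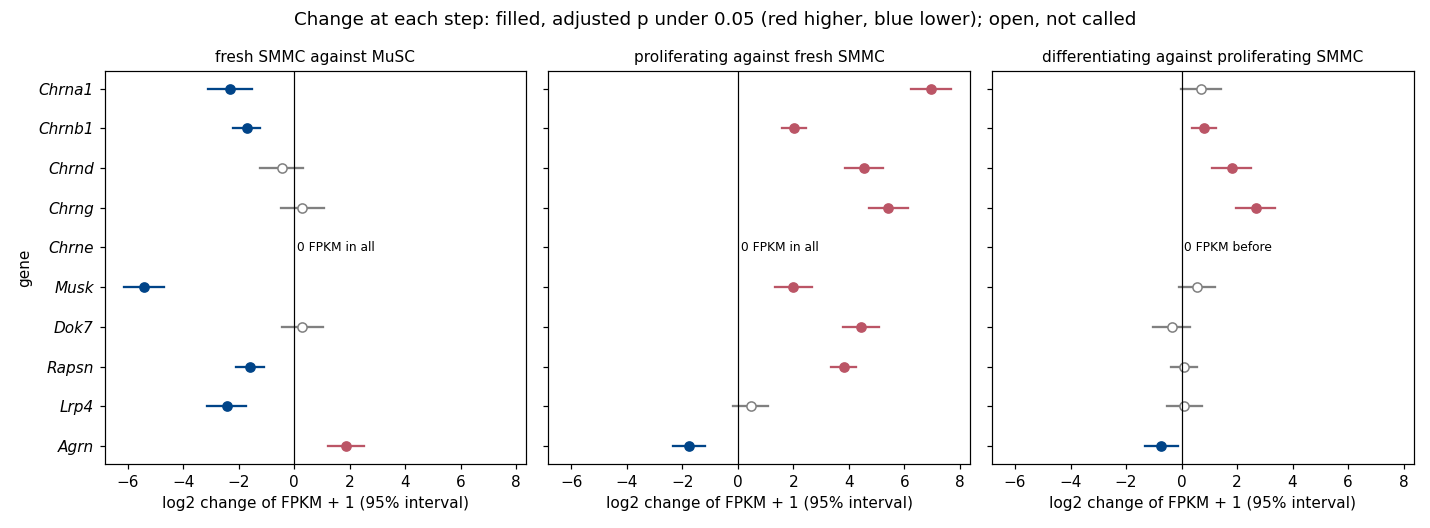
Log2 change of FPKM plus 1 with its 95% interval (horizontal axis) for each junction gene (vertical axis) in 3 comparisons, filled where limma's adjusted p was under 0.05. Most points are left of 0 for fresh SMMC against MuSC and right of 0 for the step into culture, and in the last step only receptor subunits are filled to the right. Chrne has no point since the group compared with was at 0 FPKM.

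Over the whole course from fresh to differentiating SMMC, 8 of the 10 genes rose and 1, Agrn, fell, against 34.7% of all tested genes higher and 33.3% lower. The 8 include Chrne, whose rise was fixed by the filter, so that 7 of the other 9 rose. These 7 include Dok7, whose rise was favoured by the filter. Chrng was 273-fold higher in differentiating than in fresh SMMC, Chrna1 201-fold and Chrnd 81.4-fold, with adjusted p from 1.7e-09 to 1.2e-08. Dok7 was 16.8-fold, Rapsn 14.9-fold, Chrnb1 7.19-fold and Musk 5.89-fold higher, and Lrp4 at 1.48-fold did not pass (adjusted p = 0.0997). Agrn was 5.61-fold lower. This comparison shares its libraries with those above.

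Cultured SMMC were also set beside MuSC, which here are fresh cells, so that culture and cell type cannot be told apart. In proliferating SMMC 5 of the 10 genes were higher and 2 lower than in MuSC, against 42.7% of all tested genes higher and 25.7% lower. For the differentiating cells the numbers were 7 higher, among them Chrne, again fixed by the filter, and 2 lower, against 45.6% and 25.5%. Musk and Lrp4 were the lower ones in both: Musk was 10.7-fold lower in proliferating and 7.25-fold lower in differentiating SMMC, and Lrp4 3.93-fold and 3.67-fold lower (adjusted p from 1.8e-06 to 0.00021). Rapsn was 4.62-fold and 4.91-fold higher, Dok7 26.2-fold and 20.4-fold higher and Chrng 52.3-fold and 332-fold higher. The differences of Dok7 were favoured by the filter, which it met only through cultured libraries. The comparisons with MuSC rest on 2 MuSC libraries. Chrnb1 was 2.18-fold higher in differentiating SMMC (adjusted p = 0.00061), a call lost when libraries were rescaled by TMM (adjusted p = 0.167). Agrn, at 1.54-fold lower in differentiating SMMC (adjusted p = 0.076), passed without MuSC replicate 1 (adjusted p = 0.040), with TMM (log2 change -1.24, adjusted p = 0.0027) and with quantile normalization (log2 change -1.15, adjusted p = 0.0023), against a log2 change of -0.63 as deposited.

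Of 20 synaptic partner genes, 17 rose from proliferating to differentiating SMMC and 0 fell, against 20.9% and 19.6% of all tested genes, with a median log2 change of 1.35 against 0.00075 for all tested genes. Among the 20, Scn4a met the filter only through differentiating libraries, so its difference was fixed by the filter. Colq, the collagen tail that anchors acetylcholinesterase in the synaptic cleft, rose 26.8-fold, from 0.987 ± 0.579 to 51.4 ± 9.67 FPKM (SD, n = 3 each, adjusted p = 1.8e-06). Ache, the esterase itself, rose 5.04-fold, and Pdzrn3, a ubiquitin ligase that acts on MuSK, rose 5.31-fold (adjusted p = 2.6e-05 and 2.4e-05). From fresh to proliferating SMMC 1 of the 20 rose (Nes, the filament protein nestin) and 8 fell, a share near the 35.4% of all tested genes that were lower, led by Lamb2, the laminin beta2 chain of the synaptic basal lamina (27.4-fold), Pdzrn3 (11.2-fold) and Utrn, the dystrophin relative of the postsynaptic membrane (3.98-fold). Against MuSC, 12 of the 20 were higher and 1, Crkl, lower in fresh SMMC, beside 41.7% and 18.0% of all tested genes. The higher ones included Pdzrn3 (13.2-fold), Lamb2 (7.81-fold) and Col13a1, a transmembrane collagen of the junction (4.71-fold).

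Among 10 regulators of receptor genes, of which 9 were tested, myogenic factors were among the called genes at both steps. From fresh to proliferating SMMC 5 rose and 2, Hdac4 and Hdac9, fell, beside 33.1% and 35.4% of all tested genes. Myod1 rose 15.2-fold, from 72.3 ± 24.1 to 1069 ± 45.8 FPKM, Myog 9.68-fold and Myf5 8.46-fold (SD, n = 3 each, adjusted p from 1.2e-07 to 0.00045). From proliferating to differentiating SMMC 3 rose and 3, Myod1, Myf5 and Etv4, fell, beside 20.9% and 19.6% of all. Myf6, the late myogenic factor, rose 10.2-fold from 0.871 ± 0.279 to 18.6 ± 5.97 FPKM, Myog rose 2.82-fold to 398 ± 44.3 FPKM and Hdac9, a class IIa histone deacetylase, rose 2.26-fold (SD, n = 3 each, adjusted p from 1.1e-06 to 0.0056). Myf6 met the filter only through differentiating libraries, so its rise was favoured by the filter. Genes of myotube structure rose at both steps, 9 of 10 on entering culture and 10 of 10 on differentiation, with median log2 changes of 3.75 and 3.81. Of all tested genes 33.1% and 20.9% were higher at these steps, with medians of -0.06 and 0.00075. Mylpf, Myh3 and Myh8 met the filter only through cultured libraries, so their rises on entering culture were favoured by the filter. Tnnc1, slow troponin C, went from 1.01 ± 0.218 FPKM in fresh to 153 ± 68.3 in proliferating and 2321 ± 180 in differentiating SMMC (SD, n = 3 each).

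Subunits of neuronal nicotinic receptors were almost silent. Of 11 such genes, 1 passed the filter on low values, Chrna7, which encodes the alpha7 subunit. Chrna7 met the filter only through the MuSC libraries, so its difference between MuSC and SMMC was fixed by the filter. It was at 1.13 ± 0.05 FPKM in MuSC (SD, n = 2) and at 0.0926 ± 0.153, 0.247 ± 0.236 and 0.0333 ± 0.0576 FPKM in fresh, proliferating and differentiating SMMC (SD, n = 3 each). The 11 genes together came to at most 1.55 FPKM in any library.

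For each member, the tested genes with the most similar profile were sought as the smallest root mean square distance between the 4 group means of log2(FPKM + 1), each centred on its own mean. Predicted genes, those with names of the Gm, Rik, AI, BC or LOC kind, were left out of the search and of the counts below. Chrng was nearest to the troponin gene Tnnt3 (distance 0.27) and the myosin light chain gene Mylpf (0.37), and Chrnd to Tnnt1 (0.19) and Dbndd1 (0.31). Chrna1 was nearest to the noncoding RNA H19 (0.53) and Tnnt1 (0.78). Chrne lay beside Abra (0.05) and Tmem184a (0.06), and Chrnb1 beside Ccdc43 (0.18) and Adamts14 (0.22). Among the assembly genes, Dok7 was nearest to Tubb3 (0.12) and E2f8 (0.22), Rapsn to Psat1 (0.12) and Frrs1 (0.24), and Musk to Gid8 (0.50) and Ncs1 (0.53). Lrp4 was nearest to Fam219b (0.02) and the small nucleolar RNA Snora2b (0.03), and Agrn to E2f5 (0.06) and Rere (0.08). Between members the nearest pair was Chrnb1 and Rapsn (0.78), with 940 genes nearer to Chrnb1 and 225 nearer to Rapsn. Chrna1 and Chrnd were 0.89 apart, with 3 genes nearer to Chrna1 than Chrnd was. For Agrn 9575 genes were nearer than its nearest member, Lrp4 (1.57). These are descriptions over 4 groups, and a distance this small is easy to reach for a gene of small range.

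The single-cell libraries place 8 of the 10 genes among the cells of uninjured muscle, while Chrnd and Chrng were not among the genes given for either library. Library 1 held 6144 cells with 19353328 UMIs (unique molecular identifiers, 1 per captured transcript) and library 2 held 6297 cells with 15507938 UMIs, with medians of 2516 and 2027 UMIs per cell, and 53 barcodes occurred in both. Scrublet called 52 doublets in library 1, which were left out, and 4 in library 2, too few to count as a working call. The remaining 12385 cells fell into 29 clusters, of which 23 were named from markers and 6, with 1142 cells, were not. All counts were small, so levels are counts per 1000000 UMIs of a class (CPM), with exact Poisson 95% intervals that cover counting error only, and with 1 class sum per library no test was made.

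In the muscle stem cell-like class, 959 cells led by Asb5, Myod1 and Gal, 5 of the junction genes were found in both libraries: Chrna1, Chrnb1, Musk, Rapsn and, with 3 UMIs and 1 UMI, Dok7. This class held 92.8% of all Chrna1 UMIs, 78.9% of Musk, 77.4% of Rapsn and 47.0% of Chrnb1, with 7.74% of the cells. Chrna1 was at 75.0 CPM (61.0 to 91.2) in library 1 and 35.4 (26.7 to 46.1) in library 2. Rapsn was at 78.0 (63.7 to 94.5) and 21.2 (14.6 to 29.8). For both genes the intervals of the libraries did not overlap. Chrnb1, at 82.5 (67.8 to 99.4) and 72.1 (59.4 to 86.8), and Musk, at 38.2 (28.5 to 50.3) and 48.9 (38.6 to 61.2), had overlapping intervals. Musk UMIs were seen in 11.3% and 11.4% of these cells, against 0% (0 of 1789 cells) and 0.177% of B cell-like cells, a class that serves as background, at median depths of 3425 and 2531 UMIs per cell against 2188 and 1558.

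Other members had their UMIs outside the stem cell-like class. Chrnb1 was also found in endothelial-like cells, at 28.3 CPM (22.4 to 35.2) and 18.7 (14.3 to 24.0), above the 1.68 (0.676 to 3.46) and 3.62 (1.46 to 7.46) of B cell-like cells. These endothelial-like cells include a cluster led by haemoglobin genes and another with interferon-response genes such as Ifit1 and Rsad2. Agrn had 54.3% of its UMIs in the endothelial-like class, which held 25.4% of the cells, at 19.4 CPM (14.6 to 25.3) and 19.6 (15.1 to 25.0). In pericyte-like cells Agrn was at 16.9 (6.78 to 34.7) and 17.6 (6.44 to 38.2). Schwann cell-like cells, 105 in all, had 6 Agrn UMIs, at 12.8 (0.323 to 71.1) and 29.9 (9.72 to 69.9) CPM. In muscle stem cell-like cells Agrn had 3 UMIs in library 1 and 0 in library 2, where a floor of 3 UMIs, the limit used here for a count of 0, stands at 1.93 CPM.

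Lrp4 was mainly in connective tissue cells. Tenocyte-like cells, 6.60% of all cells, held 42.9% of its UMIs, at 20.9 CPM in each library (14.3 to 29.6 and 15.0 to 28.5). An unnamed cluster of 130 cells led by Sfrp5, Cxcl5 and Il33 had the highest Lrp4 level of the classes with at least 100 cells, 111 (63.3 to 180) and 60.5 (33.1 to 101). Muscle stem cell-like cells had 2 Lrp4 UMIs in library 1 and 0 in library 2, while the sorted MuSC libraries had the highest bulk Lrp4 level of the 4 groups. The bulk libraries cover whole transcripts and the droplet libraries their 3' ends, and that difference between the assays was not tested. Fresh SMMC, with the highest tenocyte sum, had the lowest mean Lrp4 level in bulk, at 1.03 ± 0.238 FPKM (SD, n = 3).

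Smooth muscle-like cells, 182 in all, had 0 UMIs of Chrna1, Chrnb1, Chrne, Musk and Rapsn in both libraries, and pericyte-like cells, 361, had 0 of Chrna1, Chrne and Musk. Pericyte-like cells did have 13 Chrnb1 and 11 Lrp4 UMIs among 757105, both libraries together. Endothelial-like cells had 141 Chrnb1 UMIs among 6098884, and tenocyte-like cells 72 Lrp4 UMIs among 3438532. The floor of 3 UMIs in smooth muscle-like cells was 12.8 CPM in library 1 and 9.52 in library 2, and the exact Poisson upper limits were 15.8 and 11.7, all below the Chrna1 level of stem cell-like cells in the same library. Dok7 had 31 UMIs in all classes together, too few to place. The myofibre-like class had 26 cells, so that the junctions of the fibres themselves were not sampled.

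**Figure D4:**
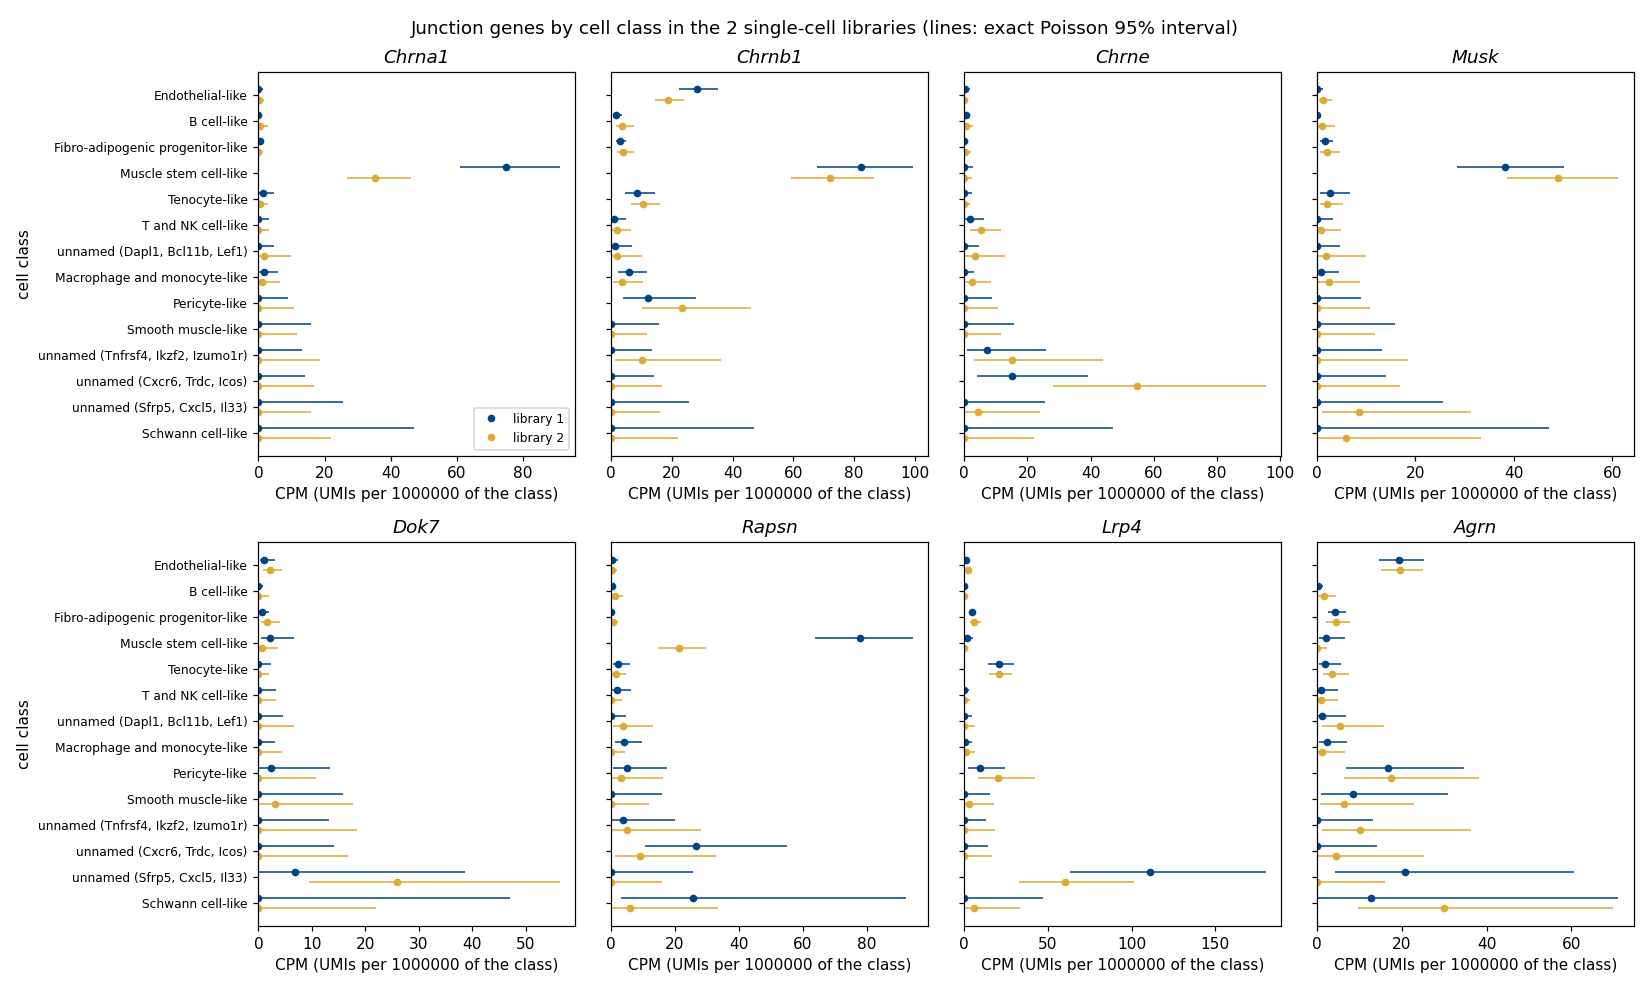
UMIs per 1000000 UMIs of the class (CPM, horizontal axis) for 8 junction genes in the 14 of 18 classes with at least 100 cells (vertical axis), in library 1 and library 2, with exact Poisson 95% intervals as lines. Chrna1, Musk and Rapsn stand out in muscle stem cell-like cells, Chrnb1 there and in endothelial-like cells, Lrp4 in tenocyte-like cells and the cluster led by Sfrp5, and Agrn in endothelial-like and pericyte-like cells, with wide intervals in Schwann cell-like cells. Chrnb1 and Lrp4 also have UMIs in pericyte-like cells.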

How the data were processed

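Bulk RNA-seq (Smart-seq2) values were FPKM per gene symbol as deposited by the authors, per the file headers. The submitters' processing notes name Cell Ranger 2.1.0 and 2.2.0, StringTie, STAR 2.5.1b, SAMtools 1.3.1 and HISAT2 2.1.0 with build mm10, and do not say which made which table. The annotation, strand setting and filters are not given in the sources used here. Of the FPKM columns, 4 matched no sample and were not used. The 13233 genes that reached 1 FPKM in 2 or more of the 11 libraries were tested on log2(FPKM + 1) with limma 3.58.1 in R 4.3.3 (lmFit, eBayes with trend), all 11 libraries in 1 fit with 7 residual degrees of freedom, two-sided, with Benjamini-Hochberg adjustment over all tested genes and a threshold of 0.05. The test was checked on simulated data.

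The single-cell tables were deposited as whole UMI counts for each gene in each cell. Per the labels, the chemistry was 3' droplet-based. Cells were clustered with leidenalg 0.10.2 at a resolution of 1 on 30 components of 2000 variable genes, without the 10 genes themselves, after Scrublet (scanpy 1.11.5). A cluster was named where at least 3 markers of a list were at least 2-fold above other cells and the list's mean log2 ratio was the highest of all lists and at least 1, unless its leading genes were markers of another class. This naming rule was set after the clusters had been seen. Levels were compared only as sums per class and library.

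All 10 genes are described. From each other list the counts and up to 3 genes are named, those of smallest adjusted p among calls in the majority direction. Genes of these lists that moved against the majority, and the cell clusters of the closing section, were named after their values were seen. The genes and lists were chosen with earlier results of these data known. Alternatives were a pseudocount of 0.1, no filter, a filter of 10 FPKM, quantile normalization, TMM (edgeR 4.0.16), Rn45s left out with every library set to one total, the 2 groups alone, a replicate block, and each library left out in turn. For the single cells they were resolutions of 0.5 and 2 and doublets kept.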

Additional observations from a re-analysis of the deposited data

How the results depend on the processing

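The number of the 10 genes called in a comparison stayed within 1.5 times its value under every alternative: 5 to 7 for fresh SMMC against MuSC, 8 to 9 for proliferating against fresh SMMC, 4 to 5 for differentiating against proliferating SMMC, 8 to 10 for differentiating against fresh SMMC, and 6 to 7 and 7 to 10 for proliferating and differentiating SMMC against MuSC. Of 1074 single-gene values, 1035 kept their direction and side of the threshold.

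Signs turned only for genes that did not pass the test. With quantile normalization the log2 changes became -0.31 for Chrng and -0.21 for Dok7 (fresh SMMC against MuSC), -0.071 for Lrp4 (differentiating against proliferating SMMC), and -0.13 for Chrnb1 and -0.34 for Agrn (proliferating SMMC against MuSC). With TMM the last pair became -0.40 and -0.49, and Agrn became -0.0099 with Rn45s left out and one total per library, and -0.028 with the replicate block. Leaving out libraries gave ranges of -0.13 to 0.70 for Chrng (fresh SMMC against MuSC), -0.21 to 0.34 for Lrp4 and -0.00063 to 0.17 for Rapsn (both differentiating against proliferating SMMC), and -0.22 to 0.41 for Agrn (proliferating SMMC against MuSC). The cause was not tested.

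Calls were gained for Chrnd in fresh SMMC against MuSC (adjusted p 0.011 with quantile normalization, 0.04999 with TMM) and for Lrp4 against fresh SMMC with quantile normalization (0.0070 for proliferating, 0.011 for differentiating). Deviations of same-numbered libraries had r from -0.13 to 0.14 (15 pairs, 2 of them over 0.1). Differently numbered libraries had r from -0.26 to 0.29. Deviations within groups of so few libraries cannot show whether same-numbered libraries shared an animal or culture, so this stays unknown. With the replicate block, Agrn passed in differentiating SMMC against MuSC (adjusted p = 0.030). Scaling moved the whole table: the median log2 change of all genes in fresh SMMC against MuSC went from 0.45 to 0.07 with TMM and -0.04 with quantile normalization, and the share of calls that were higher from 69.8% to 52.5% and 48.1%. That share went from 62.4% to 49.3% with TMM for proliferating and from 64.1% to 50.1% with TMM and 52.5% with quantile normalization for differentiating SMMC against MuSC. With a filter of 10 FPKM, which leaves fewer genes to test, all calls fell from 7906 to 5233, 9061 to 6030 and 8992 to 5911 in fresh SMMC against MuSC, proliferating against fresh and differentiating against fresh SMMC. All 48 alternative single-cell values lay within the counting interval of the reported one. Depth is unknown for the bulk libraries and limits Chrne and Dok7 in the single cells.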

Other observations

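The Chrne UMIs of the single-cell libraries, 41 in all, were mostly in lymphoid clusters. An unnamed cluster of 153 cells led by Cxcr6, Trdc and Icos held 39.0% of them with 1.24% of the cells, at 15.3 counts per 1000000 UMIs of the cluster (CPM, exact Poisson 95% interval 4.16 to 39.1) in library 1 and 54.6 (28.2 to 95.3) in library 2. The T and NK cell-like class held a further 8 UMIs, and an unnamed cluster led by Tnfrsf4, Ikzf2 and Izumo1r, in which Foxp3 is among the leading genes, held 5. The muscle stem cell-like class held 0 of 2887308 UMIs, and the B cell-like class was at 0.481 (0.0582 to 1.74) and 0.517 (0.0131 to 2.88) CPM. The same cluster led by Cxcr6 had Rapsn at 26.7 (10.7 to 55.0) and 9.09 (1.10 to 32.8) CPM, and 0 Chrna1 UMIs. Chrne contains 4930544D05Rik on the opposite strand, and the part of that gene in these counts was not tested.

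The unnamed cluster led by Ccl21a, Mmrn1 and Nts, with 98 cells, had Agrn at 66.2 (30.3 to 126) and 31.9 (10.3 to 74.4) CPM. The unnamed cluster led by Sfrp5, Cxcl5 and Il33 held 7 of the 31 Dok7 UMIs, at 6.93 (0.175 to 38.6) and 25.9 (9.51 to 56.4) CPM. Both clusters are small, and they were singled out after their values were seen.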
